A study of Mus musculus with 12 samples.

Results

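Calcineurin is a calcium-activated protein phosphatase, and the 10 genes described here encode its subunits, its Rcan regulators and the NFAT transcription factors that it acts on. They are the catalytic subunit genes Ppp3ca, Ppp3cb and Ppp3cc, the regulatory subunit gene Ppp3r1, the regulators Rcan1, Rcan2 and Rcan3, and the NFAT genes Nfatc1, Nfatc3 and Nfatc4. Expression was measured by RNA sequencing of poly A RNA in the trigeminal ganglia of 12 CD1 mice, an outbred stock. The trigeminal ganglion holds the sensory neurons of the face and the meninges. Of the mice, 6 were responders and 6 were non-responders to the neuropeptide PACAP, the pituitary adenylate cyclase-activating polypeptide. Either group was made up of 3 males and 3 females. The series asks about light aversion after PACAP and its inheritance. The sources used here do not give the age of the mice, the dose and timing of PACAP or the scoring of a response.

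The 10 genes were chosen from results of this data set, in which the responder and non-responder values were already known, with Rcan3 in view. Their responder and non-responder values are therefore a description, and no p-value of that contrast is printed for them. Which of them passed a threshold is printed beside the share of all genes, and again for other ways of processing. These counts support nothing. All 10 were found by Ensembl identifier among the 51341 genes of the deposited table. All 10 also entered the fit over the 14203 genes with at least 1 FPKM (fragments per kilobase of gene, relative to library depth) in at least 3 mice. Nfatc4 entered through the group where it was higher, since it reached 1 FPKM in 1 responder and 5 non-responders, and the other 9 reached it in every mouse.

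In background, calcium that enters a neuron or leaves its stores binds calmodulin, and calmodulin together with the regulatory subunit switches on the catalytic subunit. Active calcineurin removes phosphates from NFAT proteins in the cytoplasm, which then enter the nucleus, where kinases such as GSK3, DYRK and CK1 put the phosphates back and return them. Rcan proteins bind calcineurin and restrain it, and an internal promoter of Rcan1 is itself a known NFAT target, which makes Rcan1 a feedback regulator. In sensory neurons calcineurin is also known for acting on ion channels, among them the potassium channel encoded by Kcnk18.

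NFAT binds a core of GGAAA, read as TTTCC on the other strand. Promoter windows of 300 bases, from 250 before to 50 after an annotated start, were taken from RefSeq on GRCm38.p6 and searched for GGAAA on both strands. They were found for 7 of the 10 genes, in 11 windows, and 6 windows (54.5%) held a match, against 61.3% of all 32851 promoter windows. The Rcan3 window, chr4:135433756-135434055 on the minus strand, is shown because Rcan3 had the largest difference between the groups. The Rcan1 windows are shown because the gene has an upstream and an internal start, at chr16:92466120-92466419 and chr16:92400029-92400328 on the minus strand. Each is printed 5′ to 3′ along its gene, and capitals mark GGAAA or TTTCC.
Rcan3: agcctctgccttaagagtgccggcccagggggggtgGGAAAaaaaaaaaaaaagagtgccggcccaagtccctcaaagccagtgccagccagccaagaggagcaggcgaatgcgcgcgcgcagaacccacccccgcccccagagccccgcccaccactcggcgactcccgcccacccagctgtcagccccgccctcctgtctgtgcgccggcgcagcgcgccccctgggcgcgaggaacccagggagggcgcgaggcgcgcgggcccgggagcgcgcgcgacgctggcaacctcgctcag
Rcan1 upstream start: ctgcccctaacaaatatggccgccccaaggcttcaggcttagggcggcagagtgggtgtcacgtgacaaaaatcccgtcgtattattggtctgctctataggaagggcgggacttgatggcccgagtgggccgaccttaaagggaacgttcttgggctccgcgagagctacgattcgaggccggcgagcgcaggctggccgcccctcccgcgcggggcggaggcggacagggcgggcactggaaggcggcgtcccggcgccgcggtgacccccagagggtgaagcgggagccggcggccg
Rcan1 internal start: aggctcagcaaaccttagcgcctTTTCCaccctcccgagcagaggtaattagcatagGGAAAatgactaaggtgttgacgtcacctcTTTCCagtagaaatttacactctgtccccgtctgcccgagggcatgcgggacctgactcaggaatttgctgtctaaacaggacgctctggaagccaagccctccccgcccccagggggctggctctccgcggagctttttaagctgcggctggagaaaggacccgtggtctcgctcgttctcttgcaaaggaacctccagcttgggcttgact
The Rcan3 window held 1 match, the upstream Rcan1 window 0 and the internal Rcan1 window 3. At least 3 matches were found in 9.4% of all windows. Ppp3cb had 4 matches, Nfatc4 had 3, and Ppp3r1 had 0. Of the 3 Rcan2 windows 1 held matches, 2 in number, and of the 2 Nfatc3 windows 1 held a single match. A match is a description of letters and not a binding site. The deposited values are per gene, so that transcripts from the upstream and internal Rcan1 starts were not measured apart.

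The libraries differed in ways that touch several of the genes. The implied depth ran from 17300000 fragments in responder 1 to 38500000 in non-responder 4. Markers of pituitary summed to 77394 FPKM in responder 1 against 26.7 to 6752 FPKM in the other mice, and those of neutrophils to 2295 FPKM in non-responder 4 against 4.85 to 471 FPKM. All 8 neuronal markers had a higher mean in responders (summed level 2203 to 4741 FPKM in responders and 2484 to 3781 FPKM in non-responders), and all 6 markers of myelinating Schwann cells had a lower mean (2227 to 4261 FPKM against 4105 to 6092 FPKM). All 5 pituitary markers also had a higher mean in responders. Lower means were found for 5 of 6 fibroblast markers (median sum 181 FPKM in responders against 412 FPKM) and 5 of 5 central glia markers (107 against 237 FPKM). The same held for every marker of the smooth muscle and pericyte, osteoclast, neutrophil and skeletal muscle lists, 4 of 5 satellite glia markers and 5 of 6 endothelial markers. For macrophages and T cells 3 of 6 were lower. No marker of the 13 cell type lists was at 0 in all mice (0 markers). In whole ganglia, fewer cells of a type and less RNA per cell cannot be told apart. Each label also carries a description number, and all 7 such numbers belonged to mice of 1 group and 1 sex only, so that what the number stands for and the response cannot be told apart.

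The genes covered a wide range of levels, set side by side on the FPKM scale, which is per length. Rcan2 had the highest level, at 96.5 ± 17.9 FPKM (mean ± SD, n = 12), close to Ppp3r1 at 91.8 FPKM. Ppp3cb followed at 38.4 FPKM and Ppp3cc at 19.4 FPKM. Rcan1 (8.03 FPKM), Ppp3ca (7.16 FPKM), Nfatc3 (5.64 FPKM) and Rcan3 (5.38 FPKM) lay close together, and Nfatc1 (1.89 FPKM) and Nfatc4 (0.992 FPKM) were lowest. Neighbours in this order were compared within mice with an exact sign-flip permutation test of log2(FPKM + 1), 2-sided and Benjamini-Hochberg adjusted over the 9 pairs. The steps from Ppp3r1 to Ppp3cb, from Ppp3cb to Ppp3cc and from Ppp3cc to Rcan1 passed, each with the higher gene above in 12 of 12 mice (permutation p = 0.000488, the smallest the test can give, adjusted p = 0.00146). The step from Rcan3 to Nfatc1 also passed (10 of 12 mice, exact adjusted p = 0.00615), as did that from Nfatc1 to Nfatc4 (11 of 12 mice, exact adjusted p = 0.0022). The mice with Rcan3 below Nfatc1 were non-responders 3 (2.13 against 2.45 FPKM) and 4 (3.68 against 5.18 FPKM). That step therefore pools groups that differ in Rcan3, and Nfatc4 entered the fit through the group where it was higher. Both steps are a description. The other 4 pairs did not pass over all mice: Rcan2 and Ppp3r1 (exact adjusted p = 0.532), Rcan1 and Ppp3ca (0.956), Ppp3ca and Nfatc3 (0.0952), and Nfatc3 and Rcan3 (0.532). For the last pair the order differed by group. Rcan3 lay above Nfatc3 in every responder and below it in every non-responder. The pooled test of that pair therefore does not describe either group, and the Rcan3 values are those with which the gene was selected.

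**Figure D1:**
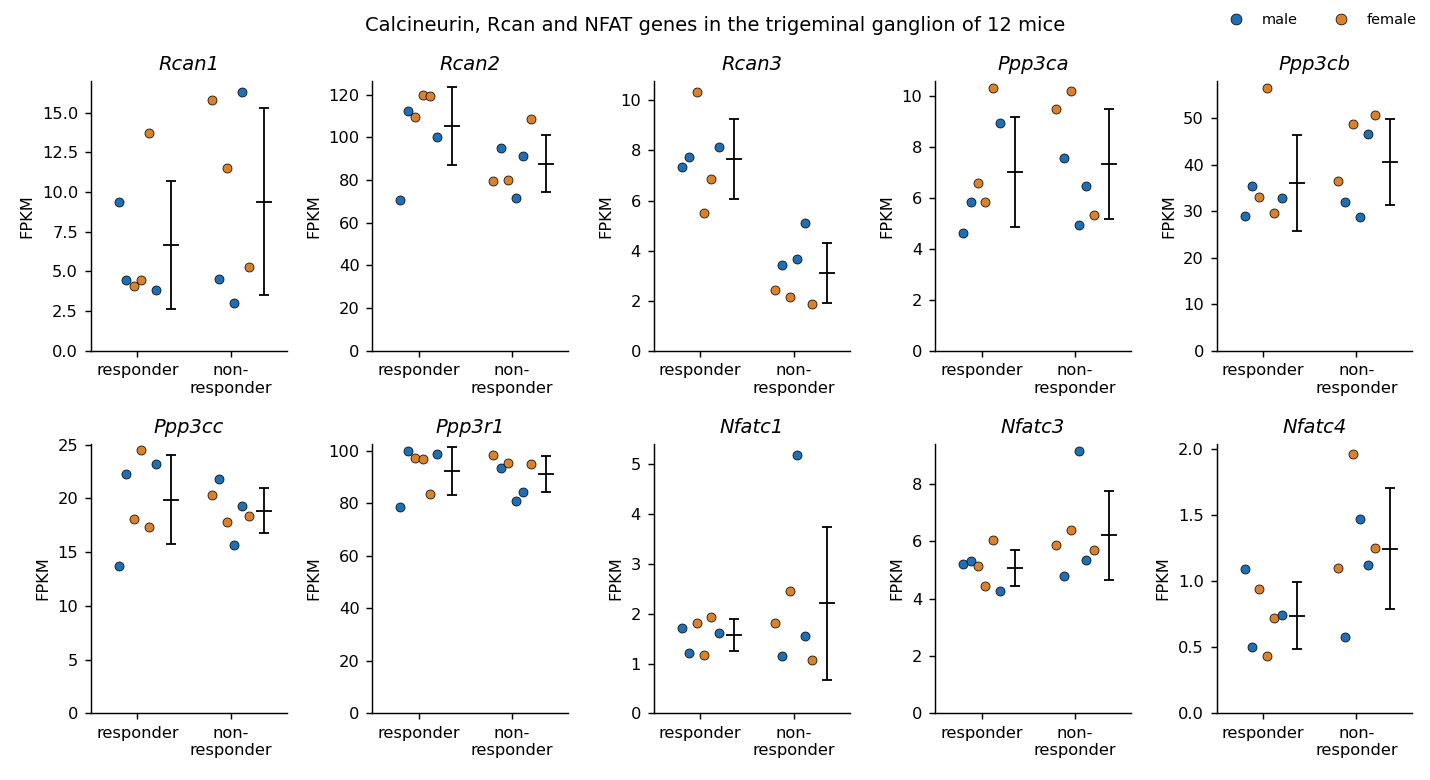
FPKM (y axis, linear from 0) of the 10 genes in each mouse, responders on the left and non-responders on the right of each panel, coloured by sex, with the mean and SD of 6 mice as the bar beside the points. Rcan3 is the gene whose groups do not overlap, Rcan1 falls into a low and a high set of mice in either group, and Nfatc1 and Nfatc3 each have 1 non-responder far above the others.

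Of the catalytic subunits, Ppp3cb and Ppp3ca are the forms best known from brain, and Ppp3cc is best known from testis. Ppp3cb ran from 29.0 through a median of 33.1 to 56.5 FPKM in responders and from 28.8 through 41.6 to 50.7 FPKM in non-responders. The groups overlapped almost wholly, and responder 4 lay apart from the other responders, which stayed at or below 35.4 FPKM. Ppp3cc ran from 13.7 through 20.2 to 24.6 FPKM in responders and from 15.7 through 18.8 to 21.9 FPKM in non-responders, so that the responders held both the lowest and the highest mouse. Ppp3ca ran from 4.63 through 6.20 to 10.3 FPKM in responders and from 4.91 through 7.02 to 10.2 FPKM in non-responders, again with near complete overlap. The responder minus non-responder differences were -0.17 (SE 0.173) for Ppp3cb, 0.05 (SE 0.142) for Ppp3cc and -0.05 (SE 0.197) for Ppp3ca on the log2(FPKM + 1) scale. On GRCm38, Ppp3cb (ENSMUSG00000021816) at chr14:20499364-20546573 on the minus strand, Ppp3cc (ENSMUSG00000022092) at chr14:70217865-70289471 on the minus strand and Ppp3ca (ENSMUSG00000028161) at chr3:136670124-136937727 on the plus strand are annotated. For Ppp3cc and Ppp3ca the sign turned when single mice were left out (-0.02 to 0.16 and -0.16 to 0.02).

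Ppp3cb made up the largest part of the catalytic FPKM and Ppp3cc the next. Ppp3cb accounted for 58.6% ± 5.83 (SD, n = 12) of the sum of the 3 genes, Ppp3cc for 30.2% ± 4.09 and Ppp3ca for 11.2% ± 3.25. The Ppp3ca share ran from 6.71% to 17.9% and was highest in responder 5. It was 11.8% ± 4.34 in females and 10.6% ± 1.93 in males (n = 6 each), and the difference of 1.14 percentage points was within the spread (exact permutation test over all assignments of sex to the mice, 2-sided, p = 0.574, adjusted p = 0.922 over 2 tests). Without responder 5 the difference was -0.0978 percentage points. By group the Ppp3ca share was 11.4% ± 3.95 in responders and 10.97% ± 2.76 in non-responders (n = 6 each), a description.

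Ppp3r1 encodes calcineurin B, the calcium-binding regulatory subunit, and was the steadiest of the genes. It ran from 78.5 through 97.0 to 99.98 FPKM in responders and from 80.8 through 94.1 to 98.2 FPKM in non-responders. The groups overlapped throughout, and the lowest mice, responder 1 and non-responder 4, were those that stood apart in their marker genes. The difference was 0.02 (SE 0.087) on the log2 scale. Its within-group SD was 0.128 on the log2 scale, against a median of 0.224 over the 8031 tested genes of at least 5 FPKM. Ppp3r1 was at 1.499 ± 0.207 times the summed catalytic FPKM in responders and 1.39 ± 0.185 times in non-responders (SD, n = 6 each). The annotation has Ppp3r1 (ENSMUSG00000033953) at chr11:17159263-17200375 on the plus strand. A stretch of 462 bases of Ppp3r1 transcript is shared in full with the neighbouring gene Wdr92 (mean 4.41 FPKM), so that reads there could be counted for either.

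**Figure D2:**
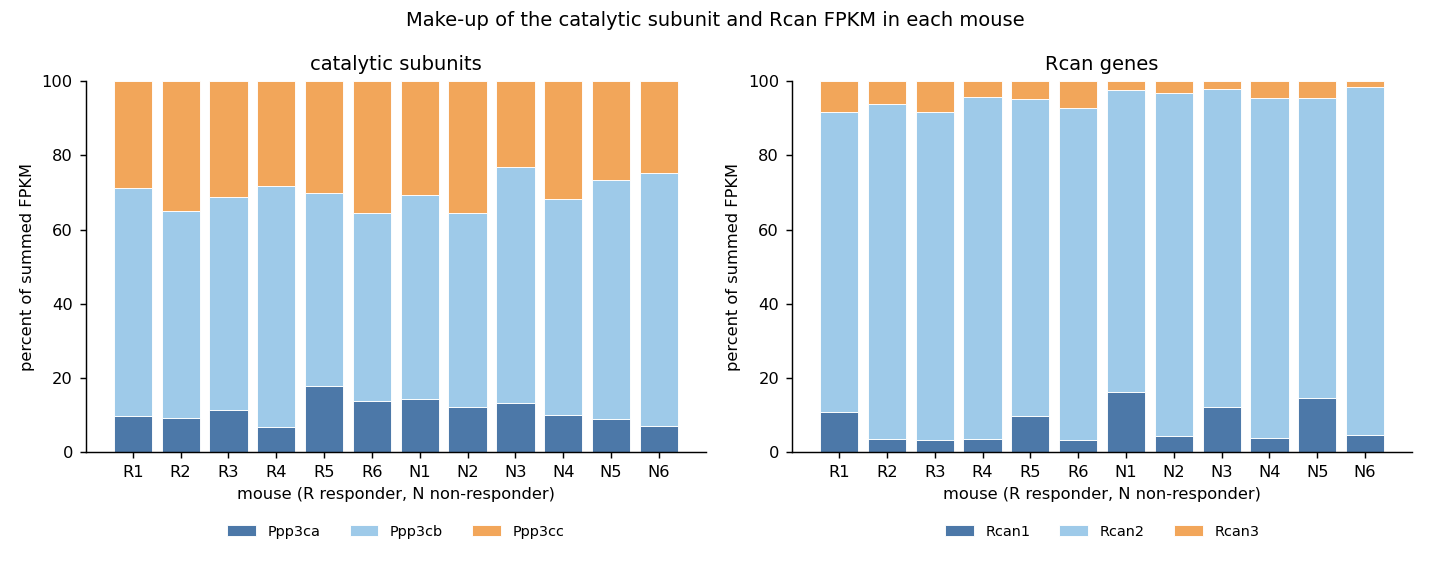
Percent of summed FPKM (y axis, from 0 to 100) taken by each gene of the catalytic family (left) and of the Rcan family (right) in each of the 12 mice (x axis, R responders, N non-responders). Ppp3cb and Rcan2 took the largest share of their family in all 12 mice, and the Rcan1 share was high in the same 5 mice as the Rcan1 FPKM.

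Rcan2 is the Rcan gene of highest level in the ganglion and is annotated as Rcan2 (ENSMUSG00000039601) at chr17:43801351-44039516 on the plus strand. It ran from 70.7 through 111 to 119.7 FPKM in responders and from 71.6 through 85.6 to 108.8 FPKM in non-responders. The groups overlapped: responder 1, at 70.7 FPKM, was the lowest of all mice, and non-responder 6, at 108.8 FPKM, lay above responders 1 and 6 and below the other 4. The difference was 0.25 (SE 0.137) on the log2 scale and 0.32 without responder 1 and non-responder 4. Of the summed Rcan FPKM, Rcan2 took 87.6% ± 4.74 (SD, n = 12), with 87.8% ± 4.71 in females and 87.5% ± 5.21 in males (n = 6 each). That difference of 0.251 percentage points was within the spread (exact permutation test, 2-sided, p = 0.922, adjusted p = 0.922), and its sign turned when some single mice were left out. Within-group deviations of Rcan2 ran against those of the smooth muscle and pericyte markers, taken as their mean log2(FPKM + 1) (Pearson r = -0.89, permutation adjusted p = 0.0052; Spearman rho = -0.82, adjusted p = 0.0819; 12 mice, 130 relations of 13 marker lists with the 10 genes). Leaving out the 2 mice farthest in the marker list gave r = -0.83.

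Rcan3, which encodes another calcineurin-binding regulator, was the gene of the set with the largest difference between the groups. Its FPKM in responders 1 to 6 was 7.32, 7.75, 10.3, 5.50, 6.87 and 8.13. In non-responders 1 to 6 it was 2.44, 3.43, 2.13, 3.68, 5.10 and 1.88 FPKM. Every responder lay above every non-responder, with responder 4 at 5.50 FPKM and non-responder 5 at 5.10 FPKM as the nearest pair. The means were 7.65 ± 1.603 and 3.11 ± 1.21 FPKM (SD, n = 6 each), a ratio of means of 2.46, and the log2(FPKM + 1) difference was 1.10 (SE 0.162). Over the alternatives tried it stayed between 0.97 and 1.33, and it was 1.15 without responder 1, whose pituitary markers were high, and 1.16 without responder 1 and non-responder 4. Rcan3 took 6.56% ± 1.74 of the summed Rcan FPKM in responders and 3.16% ± 1.25 in non-responders (n = 6 each). These values are those with which the gene was selected.

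Within the non-responders, Rcan3 was lower in each female than in any male, by value. This was not particular to Rcan3. In the same mice Ppp3r1 was higher in each female (94.8 to 98.2 FPKM) than in any male (80.8 to 93.5 FPKM). The share of all genes with such a separation was not counted. Non-responder females had an Rcan3 level of 2.15 ± 0.282 FPKM and non-responder males 4.07 ± 0.903 FPKM (SD, n = 3 each), without overlap. Responder females had 7.57 ± 2.50 FPKM and responder males 7.74 ± 0.403 FPKM (n = 3 each), and overlapped. The responder minus non-responder difference was 1.41 (SE 0.198) in females and 0.80 (SE 0.198) in males. The difference of these, 0.61 (SE 0.28), did not pass limma's test with Benjamini-Hochberg adjustment (unadjusted p = 0.0538, adjusted p = 0.836), nor did the female minus male difference of -0.37 (SE 0.162; limma unadjusted p = 0.0425, adjusted p = 0.864). The non-responder males all carried the description number 82 and the non-responder females the numbers 68 and 83, so that sex and number cannot be told apart in that group. By number, Rcan3 was 8.13 FPKM for number 44, 6.87 for 45, a mean of 7.54 for 48 and 7.93 for 49 among responders. Among non-responders it was 2.13 FPKM for 68, a mean of 4.07 for 82 and 2.16 for 83.

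Rcan3 (ENSMUSG00000059713) spans chr4:135412308-135433853 on the minus strand in GENCODE M21 on GRCm38, with 3 annotated transcripts, and the microRNA gene Mir700 lies within an exon (mean 0.374 FPKM). None of the relations of Rcan3 with the 13 marker lists passed the adjustment. The r furthest from 0 was that with the T cell list, at 0.60 (permutation adjusted p = 0.191, rho = 0.58, adjusted p = 0.333, r = 0.60 without the 2 farthest mice). The neutrophil list followed at r = 0.59 (permutation adjusted p = 0.203, rho = 0.58, adjusted p = 0.333, r = 0.38 without the 2 farthest mice). With the neuronal list the Rcan3 deviations had r = 0.32 (permutation adjusted p = 0.686, rho = 0.45, adjusted p = 0.455, r = 0.48 without the 2 farthest mice). With the myelinating Schwann cell list the value was r = 0.08 (permutation adjusted p = 0.914; rho = 0.17, adjusted p = 0.853; r = 0.01 without the 2 farthest mice). With the pituitary list it was r = -0.02 (permutation adjusted p = 0.975; rho = -0.28, adjusted p = 0.703; r = 0.09 without the 2 farthest mice).

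Rcan1 encodes the feedback regulator that NFAT is known to induce, and it was the most variable gene of the set. In responders 1 to 6 it was at 9.40, 4.46, 4.08, 4.45, 13.7 and 3.80 FPKM. In non-responders 1 to 6 it was at 15.8, 4.54, 11.5, 3.01, 16.3 and 5.28 FPKM. The mice fell into 2 sets in either group: 7 mice at or below 5.28 FPKM and 5 mice at or above 9.40 FPKM, with no mouse between. The high set held responders 1 and 5 and non-responders 1, 3 and 5, which are 2 males and 3 females. The group means of 6.66 ± 4.06 and 9.40 ± 5.90 FPKM (SD, n = 6 each) differed by less than the spread within either group, with a log2 difference of -0.36 (SE 0.42). That difference ran from -0.71 to -0.11 over the alternatives, and was -0.11 without non-responder 5. The female minus male difference was 0.39 (SE 0.42; limma adjusted p = 0.867). The within-group SD of Rcan1 was 0.805 on the log2 scale, against 0.294 for Rcan3 and a median of 0.251 over all tested genes. Over all 12 mice the satellite glia list was the 1 of 13 marker lists whose relation with Rcan1 passed by Pearson's r, with a negative sign, but no pooled r is given because the mice form separate sets. Within the 7 low mice that list had r = 0.30 (exact permutation adjusted p = 0.68 over 13 lists; rho = 0.46, adjusted p = 0.786; r = 0.67 without the 2 farthest mice). There 0 of the 13 lists passed by r, and the T cell list alone passed by rho (r = -0.84, exact permutation adjusted p = 0.201; rho = -0.96, adjusted p = 0.0361; r = -0.86 without the 2 farthest mice). The 7 mice were set apart by their own Rcan1 values, so the relations within them are a description. Of the T cell markers, Cd3e, Cd3g and Cd8a were under 1 FPKM in all mice. Rcan1 (ENSMUSG00000022951) lies at chr16:92391953-92470867 on the minus strand, with 7 annotated transcripts.

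**Figure D3:**
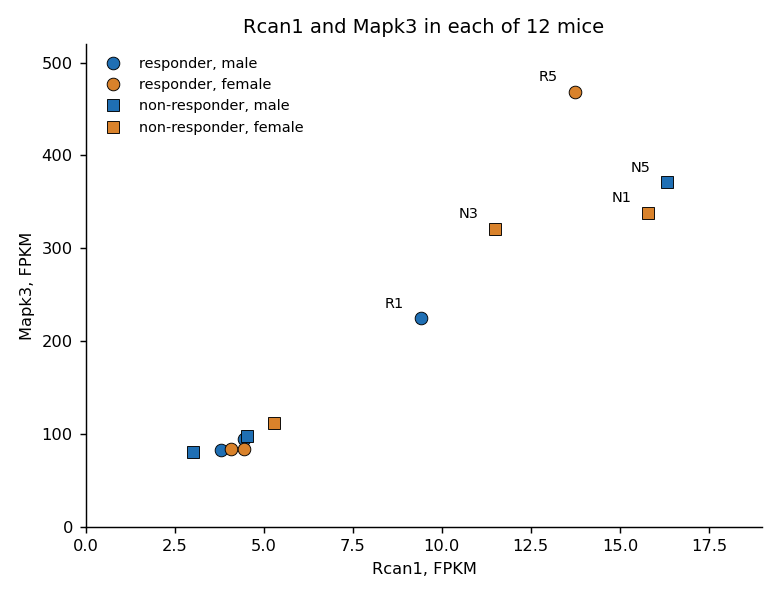
Rcan1 FPKM (x axis) against Mapk3 FPKM (y axis), both linear from 0, 1 point per mouse, circles for responders and squares for non-responders, coloured by sex. The 5 mice with Rcan1 at or above 9.40 FPKM are the 5 with Mapk3 at or above 224 FPKM, and the other 7 lie at or below 5.28 and 112 FPKM.

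The pattern of Rcan1 was shared by Mapk3, which encodes the kinase ERK1. Likeness was measured as the Pearson r of the deviations in log2(FPKM + 1) left after response and sex, over 12 mice and 7598 genes of at least 5 FPKM, as a description. Mapk3 had the highest r with Rcan1, at 0.98. Mapk3 was at 224, 94.3, 83.6, 84.3, 469 and 82.3 FPKM in responders 1 to 6 and at 338, 97.4, 321, 81.1, 371 and 112 FPKM in non-responders 1 to 6. The same 5 mice were high in both genes. Whether the separate sets lie in the reads or arise in the deposited per-gene estimates was not tested. Because the mice form separate sets, r was also taken within the 7 low mice, where it was 0.81, with a rho of 1.00 and r = 0.75 without the 2 mice farthest in Rcan1. Mapk3 was chosen by its likeness over mice that include these 7, so these values are a description with no test. The next genes in likeness were Plekha5 (0.93), Cdc42bpb (0.92), Cuta (0.88) and Plekha7 (0.87). None of these 4 had a gap between the same sets of mice, and within the 7 low mice none had an r above 0.13.

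The genes most like the other regulators and subunits differed from gene to gene. For Rcan2 they were Serpina3n and Vcpip1 (r = 0.96 each), Tanc2 (0.95), and Kif5a and Paqr9 (0.94 each). Kif5a, a neuronal kinesin heavy chain, was lowest in responder 1 at 115.7 FPKM, as was Serpina3n at 26.2 FPKM, the mouse where Rcan2 was lowest too. For Rcan3 they were Pitpnm1 (r = 0.90), Kifc2 and Lyz1 (0.89 each), and Eipr1 and Ly6c1 (0.88 each). The r of Lyz1, a lysozyme gene, came from responder 3 at 97.8 FPKM and non-responder 5 at 74.3 FPKM, with every other mouse at or below 7.27 FPKM and a rho of 0.39. For Ppp3ca they were Atp5o and Cdh19 (r = 0.86 each), Erbb2 (0.85), Itprid2 (0.84) and Vps9d1 (0.83).

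Among the NFAT genes, Nfatc3 had the highest level, and Nfatc1 and Nfatc4 were near the lower limit of the fit. Nfatc3 ran from 4.27 through 5.18 to 6.03 FPKM in responders and from 4.78 through 5.79 to 9.16 FPKM in non-responders. The groups overlapped, and non-responder 4 alone was above 6.39 FPKM. Nfatc1 ran from 1.17 through 1.67 to 1.93 FPKM in responders and from 1.08 through 1.69 to 5.18 FPKM in non-responders, with nearly the same medians and non-responder 4 again the highest. The log2 differences were -0.23 (SE 0.135) for Nfatc3 and -0.22 (SE 0.24) for Nfatc1, and without non-responder 4 they were -0.11 and 0.01. The annotation has Nfatc3 (ENSMUSG00000031902) at chr8:106058840-106130537 on the plus strand and Nfatc1 (ENSMUSG00000033016) at chr18:80606205-80713071 on the minus strand. Nfatc3 shares 219 bases with Esrp2 on the opposite strand (mean 0.235 FPKM).

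Non-responder 4 was high in markers of bone, blood and muscle as well. Nfatc1 is known as the master factor of osteoclasts, the bone-resorbing cells, and for its part in T cells. The summed osteoclast markers were at 108 FPKM in non-responder 4, with Acp5 at 56.9 and Ctsk at 46.2 FPKM, against 5.73 to 58.6 FPKM in the other mice. Of that list all 6 genes had a lower mean in responders, and the defining markers Calcr, Ocstamp and Dcstamp were under 1 FPKM in all mice. The summed T cell markers were at 7.97 FPKM in that mouse against 1.02 to 3.85 FPKM in the others, with Cd3e, Cd3g and Cd8a under 1 FPKM in all mice. Deviations of Nfatc1 ran with those of the T cell list (r = 0.85, permutation adjusted p = 0.0201; rho = 0.77, adjusted p = 0.127; r = 0.65 without the 2 farthest mice) and less closely with the osteoclast list (r = 0.71, permutation adjusted p = 0.0833; rho = 0.50, adjusted p = 0.378; r = 0.36 without the 2 farthest mice). The part of these cells in the Nfatc1 and Nfatc3 levels was not tested.

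The annotation has Nfatc4 (ENSMUSG00000023411) at chr14:55823144-55833943 on the plus strand. It ran from 0.437 through 0.733 to 1.09 FPKM in responders and from 0.575 through 1.18 to 1.96 FPKM in non-responders. The groups overlapped through non-responder 2, at 0.575 FPKM, and responder 1, at 1.09 FPKM, while the other 5 non-responders lay at or above 1.10 FPKM. The difference was -0.36 (SE 0.149) with 1 added before the logarithm and -0.66 with 0.1 added. Deviations of Nfatc4 ran with those of the macrophage markers (r = 0.92, permutation p = 1e-05, the smallest the test can give, adjusted p = 0.0013; rho = 0.88, adjusted p = 0.0429) and of the endothelial markers (r = 0.90, permutation adjusted p = 0.0039; rho = 0.83, adjusted p = 0.0819). Without the 2 farthest mice these were r = 0.88 and 0.81. The smooth muscle and pericyte list (r = 0.78, permutation adjusted p = 0.06, rho = 0.66, adjusted p = 0.246) did not pass. Nor did the neuronal list, with a negative sign (r = -0.77, permutation adjusted p = 0.0635, rho = -0.71, adjusted p = 0.246). Nfatc4 averaged 0.992 FPKM, near the lower limit of the fit, and had entered the fit through the group where it was higher. The relations were chosen after the values were seen and are a description. The macrophage sum lay at 31.5 to 62.2 FPKM among responders and at 26.5 to 76.9 FPKM among non-responders, and 3 of its 6 markers had a lower mean in responders. The endothelial sum lay at 33.3 to 42.2 FPKM and 34.9 to 53.7 FPKM, with 5 of 6 markers lower. The genes most like Nfatc4 were Mcur1, Fam43a and Lima1 (r = 0.94 each) and Cyp27a1 and Tmod3 (0.93 each), over 7599 genes.

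Between the 10 genes, 45 relations of within-group deviations were read, and 2 passed the adjustment by Pearson's r and none by Spearman's rho. Nfatc1 and Nfatc3 moved together (r = 0.87, permutation p = 0.00094, adjusted p = 0.0265; rho = 0.71, adjusted p = 0.113), and r was 0.56 without the 2 mice farthest in Nfatc1. Ppp3cc and Ppp3r1, a catalytic and the regulatory subunit, also moved together (r = 0.81, permutation p = 0.00118, adjusted p = 0.0265; rho = 0.78, adjusted p = 0.113), and r stayed at 0.81 without the 2 farthest mice. These relations and those with the marker lists were chosen after the values were seen.

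**Figure D4:**
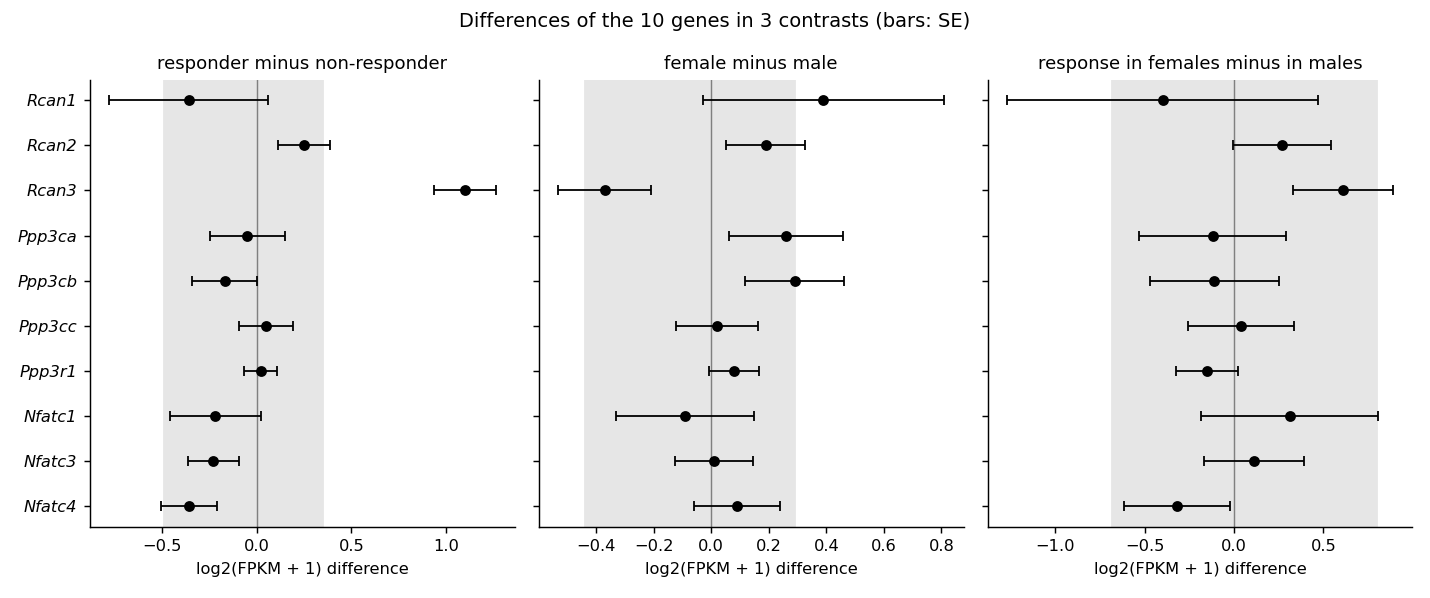
Difference in log2(FPKM + 1) (x axis) of each of the 10 genes in 3 contrasts, with SE as bars; the grey band runs from the 5th to the 95th percentile of all 14203 tested genes, -0.49 to 0.35 in the first panel. Rcan3 alone lies outside the band of the responder contrast, at 1.10, and no gene lies outside that of the interaction. In the sex contrast, with a band of -0.44 to 0.29, Rcan1 lies outside at 0.39 and Ppp3cb, at 0.29, lies at the edge.

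As a group, 4 of the 10 genes were higher and 6 lower in responders, with a median log2 difference of -0.11 against 0.00 over all tested genes. In limma with Benjamini-Hochberg adjustment 0 of the 10 genes were called between responders and non-responders, beside 3 of 14203 genes (0.0211%). At an unadjusted p under 0.05 there was 1 higher, Rcan3, beside 3.23% of all genes, which restates the choice of the genes. There was 1 lower, Nfatc4, beside 4.17%, and it had passed the level filter through the group where it was higher. Groups that did not overlap were found for 1 of the 10, Rcan3, beside 0.549% of all genes. Since the genes were chosen with this contrast known, these counts are printed beside the background and nothing is read from them.

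Sex was not used to choose the genes, and 0 of the 10 were called between females and males by limma, beside 8 of 14203 genes (0.0563%). The adjusted p ran from 0.864 to 0.992. At an unadjusted p under 0.05 there was 1 gene, Rcan3, beside 4.53% of all genes. After Rcan3 and Rcan1, the difference furthest from 0 was that of Ppp3cb, 0.29 (SE 0.173; limma adjusted p = 0.864) higher in females. Females had a Ppp3cb level of 39.8 ± 14.6 FPKM among responders and 45.3 ± 7.70 FPKM among non-responders, and males 32.5 ± 3.19 and 35.9 ± 9.54 FPKM (SD, n = 3 each). In the interaction of response and sex 0 of the 10 genes were called by limma, beside 0 of 14203 genes (0%), and 0 had an unadjusted p under 0.05, beside 5.01% of all genes. The p-values set each difference against the spread between the 12 mice, which the fit takes as independent. The mice carry 7 description numbers, each within 1 group and 1 sex, and the main fit does not take these into account.

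Beyond the 10 genes, 63 other genes of the pathway were listed in 7 lists, and 49 of them could be tested. Of these, 21 were higher and 27 lower in responders with a median of -0.02, and the remaining gene showed no difference after rounding. In limma 0 were called, beside 0.0211% of all genes. At an unadjusted p under 0.05 there was 1 higher, beside 3.23% of all genes, and 1 lower, beside 4.17%. Nothing is read from these counts. The lists were set with earlier results of these data known.

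**Figure D5:**
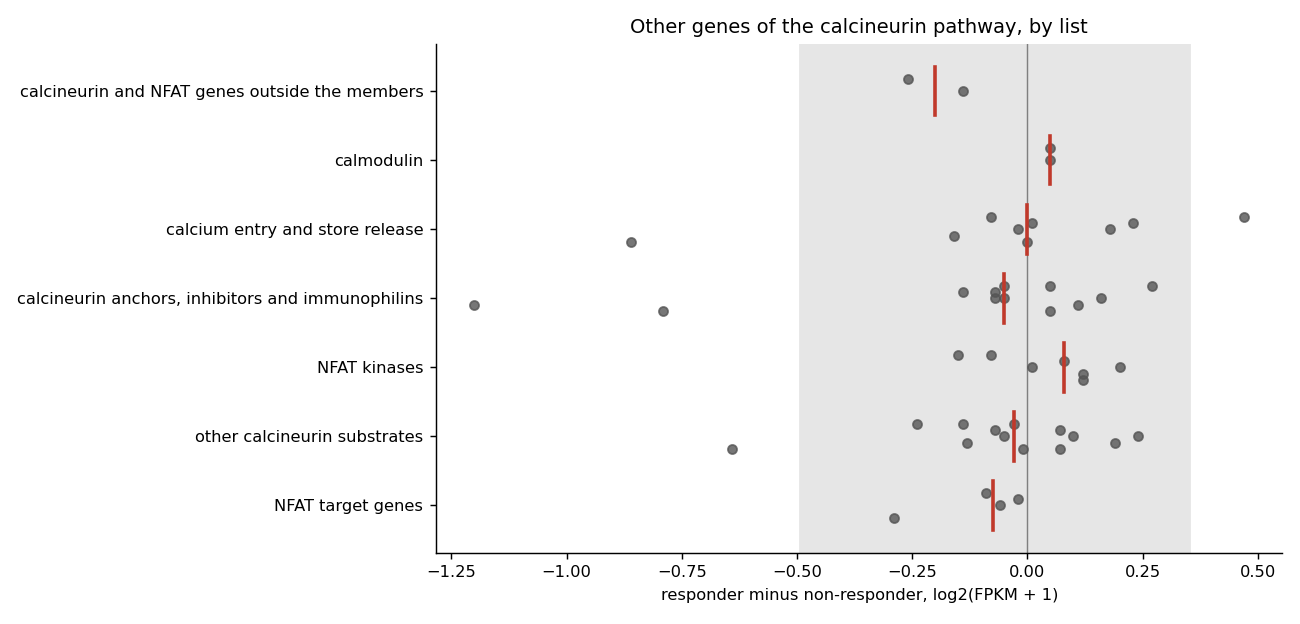
Responder minus non-responder difference in log2(FPKM + 1) (x axis) of the 49 tested pathway genes, 1 point per gene, by list; the red bar is the median of the list and the grey band the 5th to the 95th percentile of all tested genes. List medians lie between -0.20 and 0.08, and Itpr1, at 0.47, is the point furthest to the right.

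Upstream of calcineurin, calmodulin binds the calcium that switches the enzyme on. The calmodulin genes Calm2 (709 ± 77.3 against 683 ± 70.1 FPKM) and Calm3 (616 ± 121 against 590.3 ± 86.7 FPKM; SD, n = 6 each) differed by 0.05 each on the log2 scale, less than the spread within either group. Of the genes for calcium entry and release from stores, 9 of 11 were tested, 4 higher and 4 lower, with a median of 0.00. The remaining tested gene had a negative difference that rounded to 0.00. The store channel gene Itpr1 was at 10.97 ± 8.69 FPKM in responders and 6.39 ± 1.56 FPKM in non-responders, where 1 responder reached 27.6 FPKM. The ryanodine receptor genes Ryr3 (0.18, SE 0.14) and Ryr1 (-0.86, SE 0.661) were low, and Ryr1, known from skeletal muscle, reached 12.5 FPKM in a non-responder. All 6 skeletal muscle markers had a lower mean in responders, with sums of 8.67 to 362 FPKM against 25.9 to 1663 FPKM.

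Among anchors, inhibitors and the immunophilins through which calcineurin drugs act, 12 of 14 genes were tested, 5 higher and 7 lower (median -0.05). Of these, 0 were called by limma, beside 0.0211% of all genes. The inhibitor Chp1 was at 22.9 ± 5.11 FPKM in responders and 18.6 ± 3.13 FPKM in non-responders, a difference of 0.27 (SE 0.146). Homer2, which binds NFAT, was at 5.81 ± 0.620 and 5.10 ± 0.455 FPKM (SD, n = 6 each). Myoz3, a muscle gene, was listed at 0 in at least 1 mouse of each group and ran up to 0.468 FPKM in responders and 5.24 FPKM in non-responders. Fkbp1a, which encodes the partner of tacrolimus, also fell into separate sets of mice: 8 at or below 47.3 FPKM and 4 at or above 99.3 FPKM, namely responders 3 and 4 and non-responders 1 and 3, all female. Its female minus male difference was 1.08 (SE 0.313; limma unadjusted p = 0.00511, adjusted p = 0.864). Here too, whether the separate sets lie in the reads or in the deposited estimates was not tested. Ppia, the partner of cyclosporin, was at 481 ± 61.8 and 525 ± 32.5 FPKM (SD, n = 6 each).

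Of the NFAT kinases, 7 of 8 genes were tested, 5 higher and 2 lower (median 0.08). In limma 0 were called, beside 0.0211% of all genes. None had an unadjusted p under 0.05, beside 3.23% of all genes higher and 4.17% lower. Csnk1e was at 16.2 ± 1.47 FPKM in responders and 17.98 ± 0.812 FPKM in non-responders, Gsk3b at 4.44 ± 1.01 and 3.71 ± 0.716 FPKM, and Dyrk1b at 8.16 ± 0.924 and 7.44 ± 0.797 FPKM (SD, n = 6 each). Gsk3a, a widely used kinase gene, was listed at or below 1.06 FPKM in every mouse and was not tested, so a low listing in this table is not read as absence. Of 13 other calcineurin substrates, 5 were higher and 8 lower (median -0.03). Of the CREB coactivator genes, Crtc1 had a higher and Crtc3 a lower mean in responders: Crtc1 was at 10.6 ± 1.24 FPKM in responders and 8.82 ± 1.23 FPKM in non-responders (limma adjusted p = 0.668), and Crtc3 at 7.18 ± 0.655 and 8.66 ± 0.912 FPKM (limma adjusted p = 0.602). Ppp1r1b ran from 0.0191 to 1.85 FPKM in responders and was listed from 0 to 5.13 FPKM in non-responders. Kcnk18, the calcineurin-activated channel of sensory neurons, was at 9.14 ± 1.94 and 8.44 ± 1.55 FPKM (SD, n = 6 each), a difference of 0.10 (SE 0.151).

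Downstream, 4 of 11 known NFAT target genes passed the level filter, and all 4 had a negative difference, with a median of -0.07. In limma 0 were called, beside 0.0211% of all genes. None had an unadjusted p under 0.05, beside 3.23% of all genes higher and 4.17% lower. Egr3 was at 1.00 ± 0.199 FPKM in responders and 1.13 ± 0.158 FPKM in non-responders. Egr2 was at 5.91 ± 3.36 and 7.61 ± 4.13 FPKM, and Il4 at 5.55 ± 0.644 and 5.85 ± 0.739 FPKM (SD, n = 6 each). Il4 was lowest in responder 1 (4.30 FPKM) and non-responder 4 (4.53 FPKM), although non-responder 4 had the highest T cell marker sum. The source of the Il4 values was not tested, and overlaps with neighbouring genes were looked for only at the 10 genes. The T cell targets Il2, Ifng, Fasl, Tnf, Cd40lg and Csf2, and Ptgs2, were not tested. Of the calcineurin and NFAT genes outside the 10, Nfat5 (4.61 ± 1.16 against 5.11 ± 0.738 FPKM) and the NFAT-interacting gene Nfatc2ip (1.58 ± 0.318 against 2.15 ± 0.873 FPKM) had differences of -0.14 (SE 0.138) and -0.26 (SE 0.161). Nfatc2, at 0.484 to 1.21 FPKM over all mice, and the testis regulatory subunit gene Ppp3r2, at 0 to 0.0741 FPKM, did not pass the filter.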

How the data were processed

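RNA of 12 trigeminal ganglion samples was sequenced as 150 bp paired-end reads on an Illumina HiSeq. The values the authors deposited, for each Ensembl gene in each mouse, were taken as FPKM. The header names no unit, and it was inferred from the values, whose totals ran from 286388 to 358590 per mouse. The tools were StringTie 1.3.5 and STAR 2.6.0a, and the builds are named as GRCm38 and mm10, per the submitters' processing notes. Annotation release, settings and use of strand: not given in the sources used here. Depth was implied by the step of single-exon values. Whole fragments were not recovered: 19.8% to 28.5% of these values were less than 0.05 from a whole step, where chance gives 10%, so no count test was run. There were 0 pairs of identical columns and 0 columns of other samples.

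Symbols and coordinates came from GENCODE M21 on GRCm38. Values were analysed as log2(FPKM + 1) for 14203 genes, those at 1 FPKM or more in 3 or more mice, with limma 3.58.1 in R 4.3.3 (9 residual and 2.23 prior degrees of freedom), with response and sex as terms, and with 4 cell means for the interaction. Adjusted p-values are Benjamini-Hochberg over the 14203 genes, 2-sided, and 0.05 was the threshold. Fold changes on this scale understate low genes. Levels and shares were compared with exact permutation tests, and relations across mice with 100000 permutations of the within-group deviations (marker lists as the mean log2(FPKM + 1) of their genes), in Python 3.11.15. Transcripts were searched for copies with blastn 2.17.0 (at least 90% identity over 200 bases). The procedure was tested on simulated data.

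The members and lists were chosen with earlier results of these data known. Named are the 10 genes, in each pathway list the 3 tested genes with the smallest p, and a set group (Nfatc2, Nfat5, Ppp3r2, Calm2, Calm3, Kcnk18, Crtc1, Fkbp1a and Ppia). For 5 of the 10 genes the 5 most like genes are also named, without predicted models and clones. A gene that the rule would name is not reported here. Gsk3a is named outside this rule, after its values were seen. Alternatives were other pseudocounts, filters, scalings and fits, a block for the replicate number, averaging by description number, and leaving out each mouse. The replicate numbers do not pair the mice.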

Additional observations from a re-analysis of the deposited data

Results flagged for a closer look

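In 3 groups of 6 mice the highest mouse stood further from the rest, relative to the whole range of the group, than Dixon's 95% limit for 6 values allows. Chance singles out about 1 in 20 groups in this way, and 20 groups, 10 genes in 2 groups each, were looked at. For Ppp3cb this was responder 4, a female at 56.5 FPKM, with a gap of 0.77 of the range to the next responder. For Nfatc1 it was non-responder 4, a male at 5.18 FPKM, with a gap of 0.665 of the range. For Nfatc3 it was the same mouse, at 9.16 FPKM, with a gap of 0.632 of the range.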

How the results depend on the processing

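The number of genes called between responders and non-responders was 3, and it was 1 with a filter of at least 1 FPKM in all 12 mice, 1 with the replicate block and 1 after averaging by description number. It was 2 to 6 when single mice were left out. Of the 10 genes 0 were called there, with 0 to 1 when single mice were left out. It was 1, Rcan3, without responder 3 and without non-responder 5. The genes were chosen with this contrast known, so nothing is read from it. Between the sexes 8 genes were called, 2 with the filter in all 12 mice, 5 with the replicate block and 6 to 9 without single mice. For the interaction 0 genes were called, 1 with the filter in all 12 mice, 4 with array weights and 0 to 3 without single mice. None of the 10 genes was called in the sex or interaction contrasts under the 22 and 21 alternatives run, and none of the pathway genes in the responder contrast under 23. The number of steps in the level order that passed was 5, and 5 to 6 without single mice. The sex difference in the Ppp3ca share was -0.0978 to 2.15 percentage points without single mice, negative only without responder 5. That in the Rcan2 share was -1.08 to 1.54, with -1.08 without responder 1, -0.66 without responder 4, -1.06 without non-responder 5 and -0.96 without non-responder 6. Of the 25 most like genes, 10 were also found with Spearman's rho. With 0.1 added before the logarithm, the Nfatc4 difference was -0.66. The cause of these changes was not tested.

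Titles give both groups the numbers 1 to 6, which do not pair the mice. Same-numbered mice had correlations of their deviations from -0.27 to 0.13, and 0 of 12 mice correlated best with their own number. With the replicate block the Rcan3 difference was 1.10 and 1 gene was called between responders and non-responders.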
